A study of Mus musculus with 109 samples.

Results

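The genes described here are 10 regulators that are recurrently mutated in medulloblastoma, the cerebellar tumor whose SHH subgroup arises from granule cell progenitors (GCPs). They were the 10 rows of the count table with the symbols Chd7, Chd8, Chd4, Smarca4, Kmt2c, Kmt2d, Crebbp, Ldb1, Bcor and Ddx3x, out of 15973 genes listed. The table gave Kmt2c and Kmt2d under their older names, Mll3 and Mll2. The name Mll2 has been used for both Kmt2b and Kmt2d, and it was read as Kmt2d because Kmt2b had a row of its own under the older name Wbp7. The rule names the genes by their role in the tumor and uses no value measured here, although earlier results of these data were known when the list was made. Single cells came from cerebella of C57BL/6 mice at P7, enriched for GCPs on a Percoll density gradient and captured singly on C1 Fluidigm chips, and all cells were of this strain, age and tissue, with no treatment. By the library number in their labels they came from 6 library groups, 1 with 19 cells and 5 with 18 cells, and no label ties a cell or a library group to an animal, so the spread between library groups may be technical.

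Chromatin remodelers use ATP to move or eject nucleosomes, whereas writers such as KMT2C, KMT2D and CREBBP add methyl or acetyl groups to histone tails at enhancers and promoters. In the external granule layer, GCPs divide under SHH signaling, leave the cell cycle and then turn on neuronal genes such as Dcx while they migrate inward as granule cells (GCs). Inherited changes in CHD7 cause CHARGE syndrome, in which the cerebellum can be small, and loss-of-function changes in KMT2D cause Kabuki syndrome. The question addressed was whether the RNA of these regulators differed between cells in cycle and cells out of cycle, and along the change from GCP to GC.

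Cells in cycle were taken as those with at least 100 CPM (the count divided by the cell's total and multiplied by 1e+06) of Mki67, which encodes the proliferation antigen Ki67. This gave 32 Mki67-high cells, 3 to 8 in each library group, and 75 cells under 10 CPM were Mki67-low, 10 to 15 in each. The other 2 cells lay in between and entered neither class. The classes rest on Mki67 RNA alone, and whether each Mki67-low cell had left the cycle was not tested. Mki67-low sums still had medians of 1642 CPM of Ccnd2 and 101 CPM of Top2a, beside 3348 and 1318 CPM in Mki67-high sums. For Dcx, which encodes the microtubule-binding protein doublecortin of migrating neurons, all cells were divided at their median of 934.5 CPM into 55 Dcx-high and 54 Dcx-low cells. Both divisions overlapped, since 25 of the 32 Mki67-high cells were Dcx-low and 46 of the 75 Mki67-low cells were Dcx-high.

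The Mki67 classes were also compared by summed marker genes. The 8 markers of proliferating GCPs summed to 4224 to 9984 CPM over library groups in Mki67-high cells. In Mki67-low cells they summed to 1041 to 4139 CPM. Mki67, which defined the classes, is in this list and gave 717 to 1677 and 0.308 to 1.77 CPM of these sums. The lack of overlap in this list therefore rests on Mki67 itself. The 8 markers of granule neurons, Dcx included, summed to 2348 to 5901 and to 8152 to 12903 CPM, without overlap. The 5 markers of the granule lineage, such as Pax6 and Zic1, overlapped between the classes, with medians of 2421 and 2610 CPM. Few cells were set apart by markers of other cell types. By the lists used here, 5 cells carried astroglial, 6 oligodendroglial, 3 microglial and 7 GABAergic genes, and with cells that fit several lists counted once, 6 were Mki67-high and 11 Mki67-low. Of the Mki67-high cells, 2 stood apart, 1 in library group 3 with 13533 detected genes and 1 in library group 6 with 12684, and both carried astroglial, oligodendroglial and microglial genes together. A further cell, between the Mki67 classes, was set apart only by its depth of 15071 counts. The endothelial list picked out no cell. The GABAergic markers had a summed median of 0.464 CPM in Mki67-high and 159 CPM in Mki67-low cells, with ranges of 0.029 to 25.3 and 36.2 to 768, and the microglial markers had 37.5 and 0.022 CPM. Astroglial markers had summed medians of 972 and 446 CPM and oligodendroglial markers of 1096 and 495 CPM, with overlapping ranges. The part of these markers in the results on Mki67 was tested only by leaving out the cells set apart. The median cell had 3604792 counts. The deepest had 8616017, and all cells but 1, which had 15071, held at least 1110182. Mki67-high cells had a median of 4157698 counts and 4968 detected genes, against 3580460 and 4193 in Mki67-low cells. The reads carry no molecular identifiers, so all intervals on shares of cells cover counting error only, and cells of 1 library group are not independent replicates.

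The 10 genes fell into 3 kinds by how many cells held them. Chd7 and Kmt2d were found in nearly every cell. Chd7, an ATP-dependent remodeler of the CHD family that binds enhancers (chr4:8690406-8867659, plus strand, mm10), had at least 1 count in 108 cells, 1 fewer than all, at least 10 CPM in 97 cells (89.0%, Wilson 95% interval 81.7 to 93.6) and a median of 372 CPM. Kmt2d, an enhancer histone H3 lysine 4 methyltransferase (chr15:98831669-98871204, minus strand), had at least 10 CPM in 93 cells (85.3%, 77.5 to 90.8) and a median of 201 CPM. Their levels were also the most even of the 10, with coefficients of variation over cells of 1.19 and 1.08, and the 10 highest cells held 35.5% and 32.1% of the summed CPM.

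In 6 genes a low count was common and a high level was not. Kmt2c, the closest relative of Kmt2d (chr5:25271798-25498783, minus strand), reached 10 CPM in 67 cells (61.5%, 52.1 to 70.1). Chd4, the ATPase of the NuRD repressor complex (chr6:125095981-125130591, plus strand), did so in 64 cells (58.7%, 49.3 to 67.5). Ddx3x, a DEAD-box RNA helicase with roles in translation (chrX:13280970-13294052, plus strand), did so in 61 cells (56.0%, 46.6 to 64.9). These shares were close to one another and their intervals overlapped. Smarca4, which encodes the BAF complex ATPase BRG1 (chr9:21616169-21704230, plus strand), reached 10 CPM in 59 cells (54.1%, 44.8 to 63.2). Chd8, a CHD remodeler linked to autism (chr14:52198151-52257780, minus strand), did so in 44 cells (40.4%, 31.6 to 49.8). Crebbp, which encodes the histone acetyltransferase CBP (chr16:4081328-4213997, minus strand), did so in 41 cells (37.6%, 29.1 to 47.0). All 6 had a count of at least 1 in 94 to 101 cells, but in 22 to 34 of those cells the count was only 1 to 5. Over the whole table, 42.9% of all values above 0 were counts of 1 to 5, and for this reason the share of cells at 10 CPM is used beside the share with any count.

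The last 2 genes, both adaptors without an enzymatic activity of their own, were rare. Ldb1, a bridging protein that joins LIM-homeodomain factors to enhancers (chr19:46031570-46045214, minus strand), had no count in 56 cells and reached 10 CPM in 22 (20.2%, 13.7 to 28.7). Bcor, a corepressor of the PRC1.1 Polycomb complex (chrX:12036740-12160355, minus strand), had no count in 83 cells and reached 10 CPM in 8 (7.34%, 3.77 to 13.8). Its level in those 8 cells was not low, running from 26.4 to 1944 CPM, and the 10 highest cells held 99.7% of its summed CPM.

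The genes differ in the length of their exons, from 4.606 kb of merged exons in Ldb1 to 20.291 kb in Kmt2c, so levels of different genes were compared per kilobase, over all cells of a library group summed. Ddx3x was highest, at 111 ± 58.4 CPM per kb (SD, n = 6 library groups), with a range of 50.3 to 199.9. Chd7 followed at 46.3 ± 13.9 CPM per kb and Smarca4 at 37.2 ± 13.4. Ddx3x lay above Chd7 in 5 of 6 library groups and Chd7 above Smarca4 in 5 of 6, so these 3 were ordered alike in most groups although their SDs overlapped. Smarca4 lay above the next gene, Chd4, in 6 of 6. Chd4 (19.3 ± 9.04), Kmt2c (16.6 ± 5.64), Crebbp (15.5 ± 10.9), Kmt2d (14.9 ± 3.09) and Chd8 (14.4 ± 8.30) did not differ beyond their spread, each lying above the next in 3 or 4 of 6 library groups. Ldb1 (5.65 ± 2.87 CPM per kb) and Bcor (3.97 ± 4.46) were lowest, and Chd8 lay above Ldb1 in 6 of 6. The order changed when cells were weighted equally, since a sum follows its highest cells. By the median cell, Chd7 (27.0 CPM per kb) and Kmt2d (10.1) led, and Ddx3x was at 7.12.

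**Figure D1:**
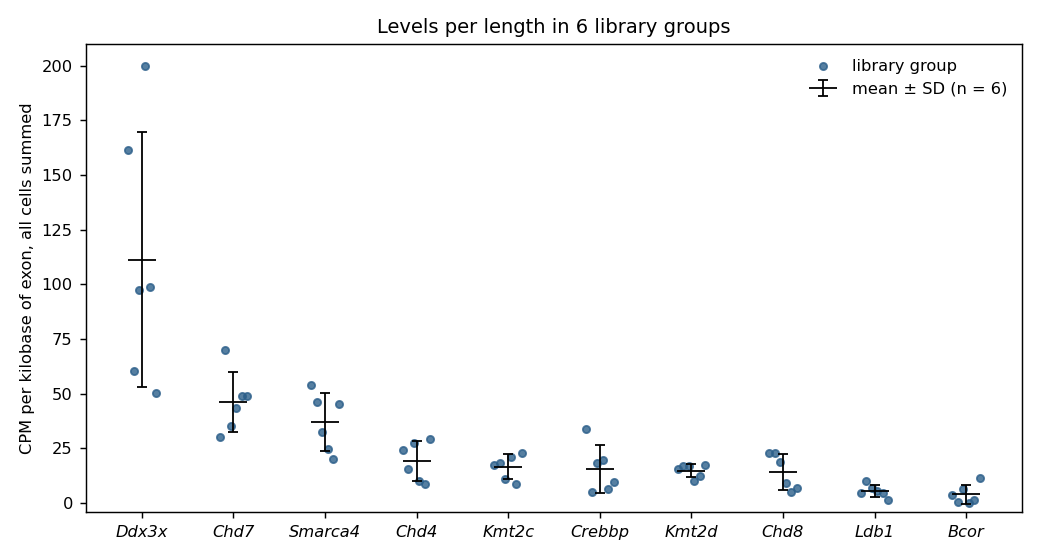
CPM per kilobase of merged exons (y axis) of the 10 genes (x axis) after summing all cells of a library group. Points are the 6 library groups and bars show mean ± SD, with Ddx3x at 111 ± 58.4 above Chd7 at 46.3 ± 13.9 and Bcor lowest at 3.97 ± 4.46.

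For tests between classes, the cells that 1 library group gave to a class were added up as raw counts, so that each class had 6 sums, and these were compared with edgeR's quasi-likelihood test over 9084 genes at an adjusted p-value under 0.01. None of the 10 genes was called between Mki67-high and Mki67-low sums, and of all genes tested 0.022% were, namely Cdc20 and Tacc3, both mitotic genes. The spread between library groups was large, with a common coefficient of biological variation of 172%. At an unadjusted p under 0.05, 2 of the 10 genes were lower in Mki67-high cells (Kmt2c and Crebbp), against 4.27% of all genes, and 0 were higher, against 2.87%. The median log2 fold change of the 10 genes was -0.43, beside -0.18 over all genes tested. DESeq2 on the same sums called 3.88% of genes and none of the 10. In bulk sums such as these, fewer cells with a transcript and less of it per cell cannot be told apart, and shares of cells are therefore given beside the sums.

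Among the remodelers, Chd7 showed no detectable difference. Its sums ran from 190 to 1412 CPM in Mki67-high cells (median 623) and from 358 to 922 CPM in Mki67-low cells (median 638). The ranges overlapped fully, and the log2 fold change, high against low, was 0.06 ± 0.51 (SE; edgeR adjusted p = 0.994). Chd7 reached 10 CPM in 90.6% of Mki67-high cells (75.8 to 96.8) and 88.0% of Mki67-low cells (78.7 to 93.6), intervals that overlapped, so Chd7 was found in most Mki67-low cells as well.

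Chd8 gave opposite answers by sum and by cell. Its sums ran from 36.8 to 276 CPM in Mki67-high cells (median 120) and from 37.3 to 523 CPM in Mki67-low cells (median 307), and were lower in Mki67-high cells in 4 of 6 library groups (log2 fold change -1.29 ± 0.85, edgeR adjusted p = 0.77). Of single cells, however, 21 of 32 Mki67-high cells reached 10 CPM (65.6%, 48.3 to 79.6) and 23 of 75 Mki67-low cells did (30.7%, 21.4 to 41.8). Thus a larger share of Mki67-high cells reached 10 CPM of Chd8. Much of the Mki67-low sum came from a few cells with a high level. The median level in cells at or above 10 CPM was 96.6 CPM in the Mki67-high and 406 CPM in the Mki67-low class, the highest cell had 949 CPM in the former and 5803 CPM in the latter, and 3 cells gave 54.1% of the Chd8 counts of that class. The share was larger in Mki67-high cells in 6 of 6 library groups, with 50 to 100% (median 64.6%) against 20 to 40% (median 32.1%). The groups' shares thus did not overlap, but each Mki67-high share rests on few cells. Such separation was not counted over all genes, so it cannot be set against a background. With a minimum of 1 count the difference was smaller, with 32 of 32 Mki67-high (89.3 to 100) and 64 of 75 Mki67-low cells (85.3%, 75.6 to 91.6), and these intervals overlapped. An antisense gene, Gm26590, overlaps exons of Chd8, and the strand setting of the counting is not given in the sources used here.

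That higher share has to be read against the other genes, because Mki67-high cells had more detected genes. Among 7811 genes that reached 10 CPM in at least 8 cells, 82.8% had a larger share in Mki67-high cells, with a median difference of 8.96 percentage points, and 6.89% had a larger share in 6 of 6 library groups. Of the 10 genes, 9 had a larger share, which was near this background, and 3 of them (Chd8, Kmt2d and Ddx3x) in 6 of 6 library groups. The difference was 35.0 points for Chd8, 19.4 for Ddx3x and 12.4 for Kmt2d. After cells were thinned to 1110182 counts, with 1 shallower cell left out, it was 32.3, 16.8 and 11.1 points, still in 6 of 6 library groups for Chd8 and Kmt2d and in 5 for Ddx3x. Without the cells of unusual depth or with genes of other cell types, Chd8 reached 10 CPM in 17 of 26 Mki67-high and 22 of 64 Mki67-low cells, and 6 of the 10 genes had a larger share in Mki67-high cells. The share of all genes was not counted on these cells, so the 6 of 10 cannot be set against a background.

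Chd4 and Smarca4 did not separate the classes. Chd4 sums ran from 63.5 to 367 CPM in Mki67-high (median 133) and from 59.2 to 322 CPM in Mki67-low cells (median 148), a log2 fold change of -0.25 ± 0.82 (edgeR adjusted p = 0.97). Cells at 10 CPM made up 68.8% (51.4 to 82.0) and 53.3% (42.2 to 64.2). The overlap was broad in both measures. Smarca4 sums ran from 33.0 to 362 CPM (median 186) and from 123 to 447 CPM (median 262), a log2 fold change of -0.61 ± 0.72 (edgeR adjusted p = 0.89), with 56.2% and 52.0% of cells at 10 CPM.

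**Figure D2:**
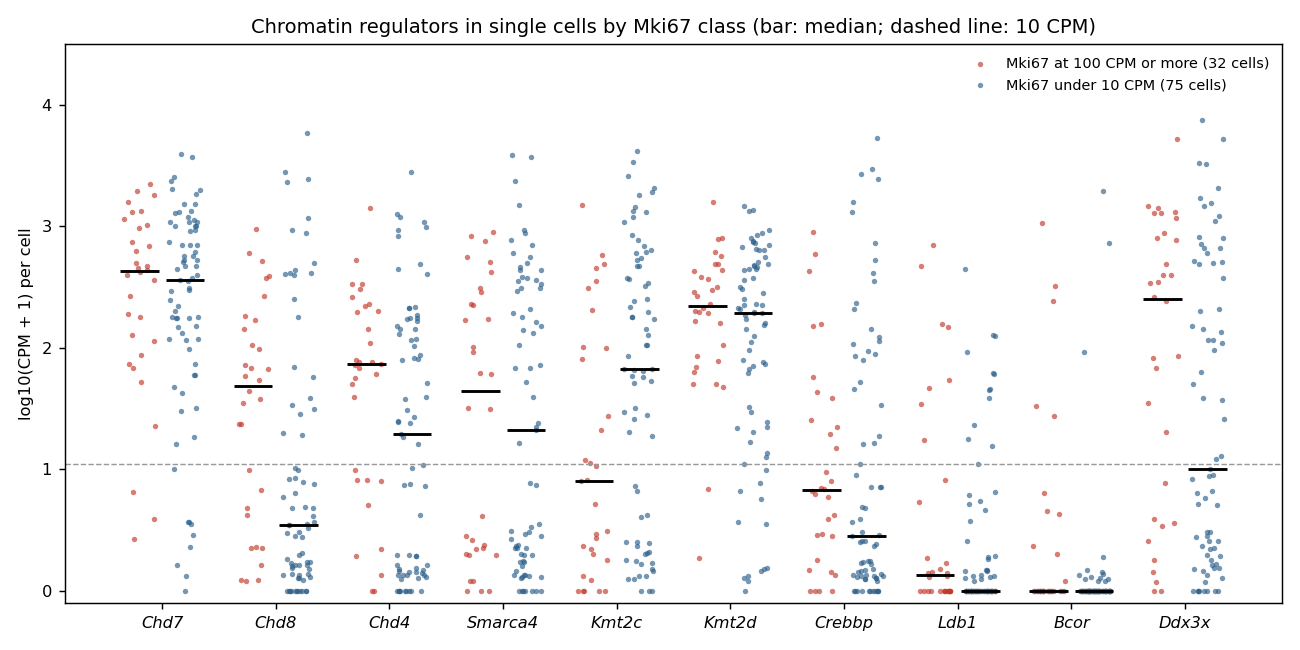
Level of each gene in every cell as log10(CPM + 1) (y axis), for 32 cells with Mki67 of at least 100 CPM (red) and 75 cells under 10 CPM (blue), with bars at the medians and a dashed line at 10 CPM. Chd7 and Kmt2d sit above the line in most cells of both classes, Chd8 (medians of 48.1 and 2.47 CPM) and Ddx3x (253 and 8.95) are higher by the median in red, and Kmt2c (7.06 and 66.2) in blue.

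Of the histone-modifying enzymes, Kmt2c showed the clearest pattern. Its sums ran from 3.07 to 195 CPM in Mki67-high cells (median 124) and from 236 to 634 CPM in Mki67-low cells (median 463). The highest Mki67-high sum thus lay below the lowest Mki67-low sum, and Kmt2c was lower in the Mki67-high class in 6 of 6 library groups. Of all genes tested, 3.2% were lower in every library group and 0.451% had sums that did not overlap in this direction. The log2 fold change was -1.99 ± 0.75, with an unadjusted p of 0.0172 and an adjusted p of 0.59 in edgeR, so the gene was not called over all genes. Single cells gave the same direction, with 14 of 32 Mki67-high cells (43.8%, 28.2 to 60.7) and 51 of 75 Mki67-low cells (68.0%, 56.8 to 77.5) at 10 CPM. The share was smaller in Mki67-high cells in 5 of 6 library groups, and the difference of -24.2 points ran against the median of all genes. The same difference was found after thinning. Library group 4, with 3 Mki67-high cells, was the exception, with all 3 at 10 CPM. Without the cells carrying genes of other cell types, the log2 fold change was -2.11 ± 0.95 (edgeR adjusted p = 0.615), with 9 of 26 Mki67-high (34.6%) and 44 of 64 Mki67-low cells at 10 CPM.

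Kmt2d, its relative, did not share this pattern. Kmt2d sums ran from 134 to 542 CPM in Mki67-high (median 268) and from 175 to 387 CPM in Mki67-low cells (median 268), a log2 fold change of 0.02 ± 0.59 (edgeR adjusted p = 0.997). Cells at 10 CPM made up 93.8% (79.9 to 98.3) and 81.3% (71.1 to 88.5). The difference between the fold changes of Kmt2c and Kmt2d was not tested.

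Crebbp was uneven between library groups. Its sums ran from 4.72 to 154 CPM in Mki67-high (median 70.5) and from 41.3 to 602 CPM in Mki67-low cells (median 221). Each class was the higher one in 3 of 6 library groups, so the log2 fold change of -2.17 ± 1.02 (unadjusted p = 0.0477, adjusted p = 0.69 in edgeR) came from 3 library groups with high Mki67-low sums. The highest cell had 903 CPM in the Mki67-high and 5292 CPM in the Mki67-low class. The share of cells at 10 CPM was nearly equal, 37.5% (22.9 to 54.7) in Mki67-high and 36.0% (26.1 to 47.3) in Mki67-low cells.

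Of the adaptors, Ldb1 sums ran from 5.33 to 165 CPM in Mki67-high (median 39.8) and from 0.686 to 31.2 CPM in Mki67-low cells (median 16.2). The ranges overlapped, and the log2 fold change was 1.65 ± 1.38 (edgeR adjusted p = 0.84). Ldb1 exons overlap those of Pprc1 on the other strand. Bcor sums ran from 0 to 108 CPM (median 3.80) and from 0 to 144 CPM (median 3.01), with 2 of 6 sums at 0 in each class. It reached 10 CPM in 5 of 32 Mki67-high cells (15.6%, 6.86 to 31.8) and 3 of 75 Mki67-low cells (4.0%, 1.37 to 11.1), intervals that overlapped, and its log2 fold change of -0.66 ± 2.2 (edgeR adjusted p = 0.97) carried little information.

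Ddx3x sums ran from 227 to 2026 CPM in Mki67-high (median 436) and from 284 to 979 CPM in Mki67-low cells (median 493), and each class was the higher one in 3 of 6 library groups (log2 fold change 0.67 ± 0.66, edgeR adjusted p = 0.86). As with Chd8, the share of cells at 10 CPM was larger in the Mki67-high class, 68.8% (51.4 to 82.0) against 49.3% (38.3 to 60.4). Ddx3x was also the gene whose level followed the number of detected genes most closely (Spearman rho 0.377 over all cells). Reads of its Y-linked copy Ddx3y may be shared with it, and Ddx3y sums reached at most 142 CPM in any class.

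**Figure D3:**
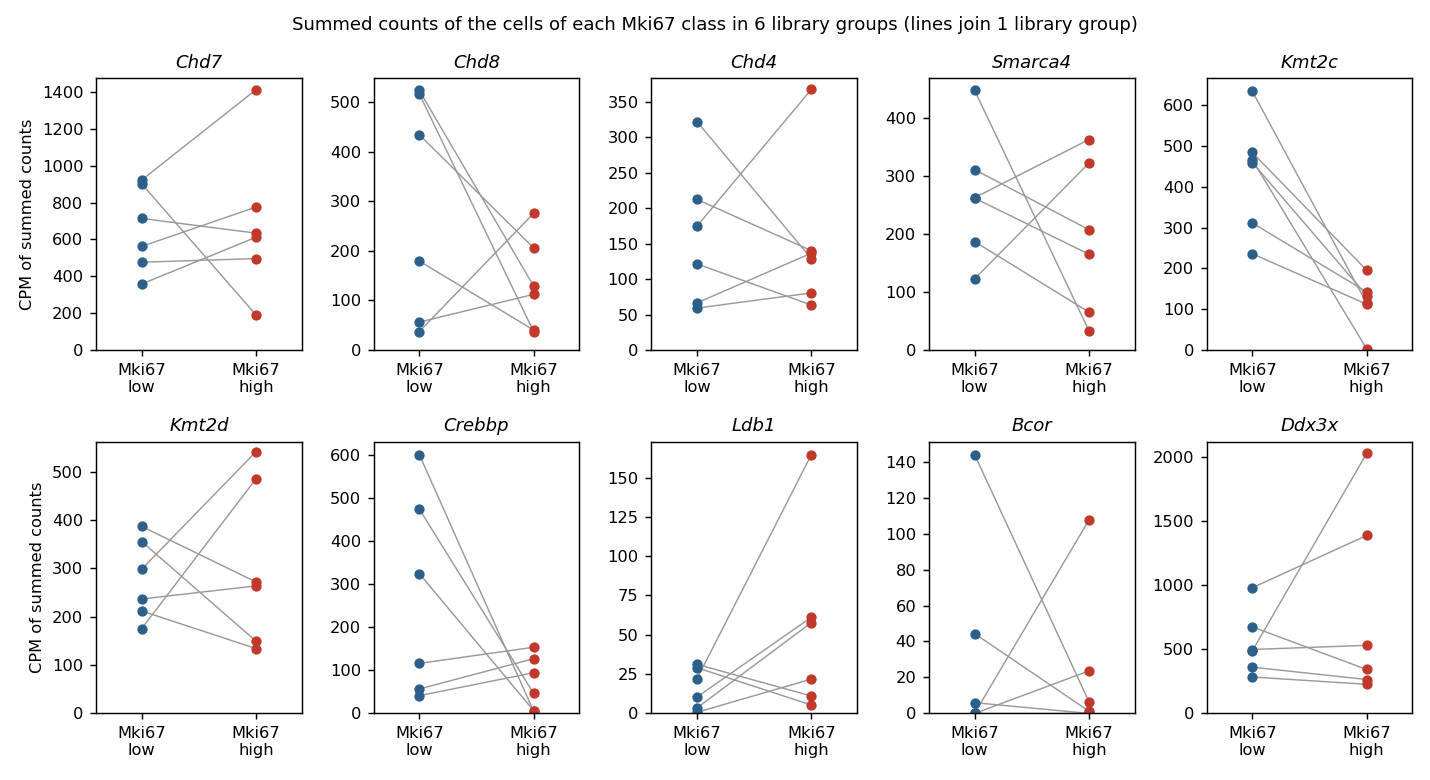
CPM of counts summed over the Mki67-low (blue) and Mki67-high (red) cells of each of 6 library groups (y axis, from 0), in a panel for each gene, with lines joining both classes of a library group. All 6 lines fall for Kmt2c, from 236 to 634 CPM to 3.07 to 195 CPM, whereas for each of the other 9 genes at least 2 library groups run each way.

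Because sums follow the highest cells, classes were also compared with limma on the mean of log2(CPM + 1) over the cells, which weights cells equally. On this scale the median of all genes was shifted by 0.43 toward Mki67-high cells, and differences are read against that shift. Chd8 was higher by 1.79 ± 0.77 (SE; limma adjusted p = 0.23), Ddx3x by 1.67 ± 0.82 (limma adjusted p = 0.31) and Chd4 by 1.27 ± 0.80 (limma adjusted p = 0.45). The direction of Chd8 and Chd4 was thus opposite to that of their sums. Kmt2c was lower by the same measure, with a difference of -1.83 ± 0.84 (limma adjusted p = 0.27), as in the sums. None of the 10 genes was called, against 0.881% of all genes. At an unadjusted p under 0.05, 2 of the 10 (Chd8 and Ddx3x) were higher, against 14.6% of all genes, and 1 (Kmt2c) was lower, against 1.03%.

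**Figure D4:**
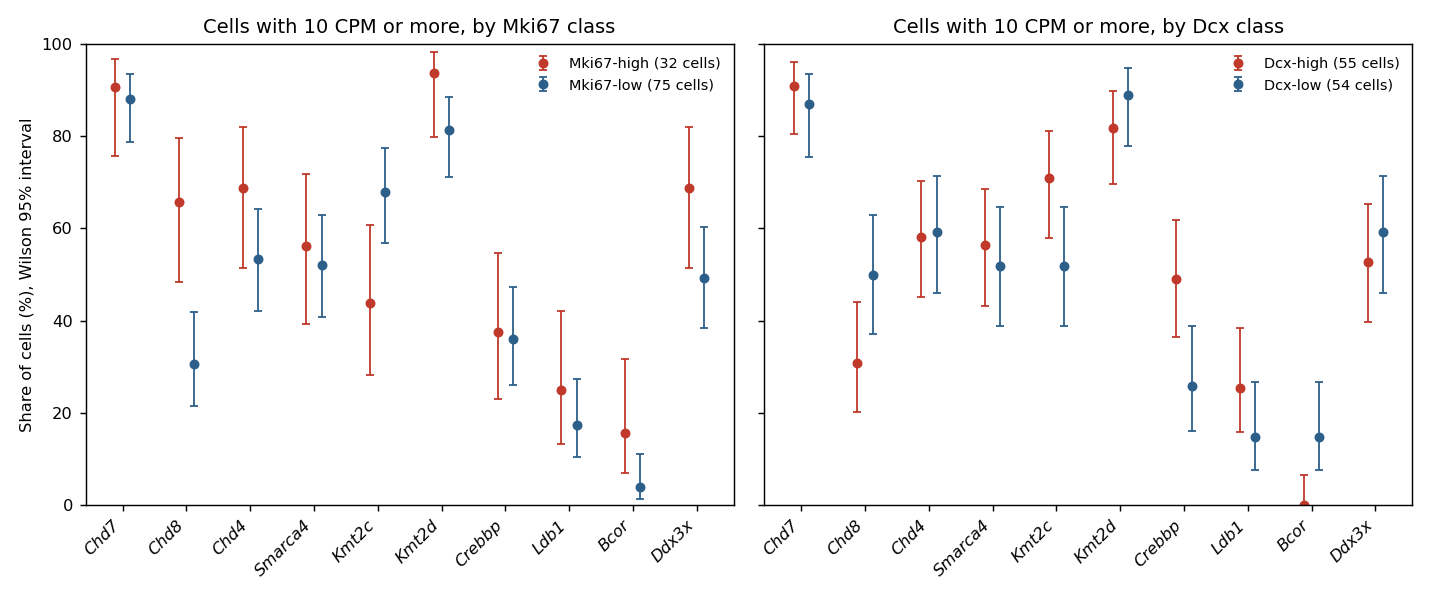
Percent of cells with at least 10 CPM of each gene (y axis, with Wilson 95% intervals), for the Mki67 classes (left) and the Dcx classes (right), high classes in red and low classes in blue. At this minimum the intervals are apart for Chd8 by Mki67 (65.6% against 30.7%) and for Bcor by Dcx (0% against 14.8%). How many of all genes have intervals that are apart was not counted.

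Between Dcx-high and Dcx-low sums, edgeR tested 9129 genes and called 0% of them at an adjusted p under 0.01, none of the 10 included. At an unadjusted p under 0.05, 1 of the 10 genes was lower in Dcx-high cells (Bcor), against 2.11% of all genes, and 0 were higher, against 2.26%. The median log2 fold change of the 10 genes was 0.56, beside 0.02 over all genes. DESeq2 on the sums called 1.27% of genes, and of the 10 only Bcor. By limma on cell means, which called 0% of genes, 1 of the 10 (Kmt2c) was higher at an unadjusted p under 0.05, against 2.45% of all genes, and 1 (Bcor) was lower, against 4.84%. Of the 10 genes, 5 had a larger share of cells at 10 CPM among Dcx-high cells, as did 40.1% of genes.

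No Dcx-high cell reached 10 CPM of Bcor. Its sums ran from 0 to 0.676 CPM in Dcx-high cells (median 0.0803) and from 0 to 247 CPM in Dcx-low cells (median 36.7), and were lower in Dcx-high cells in 5 of 6 library groups. In library group 4 no cell had a Bcor count, so both sums were 0 there. All Dcx-high cells together held 44 Bcor counts (0.227 CPM) and all Dcx-low cells 14159 (68.6 CPM). None of the 55 Dcx-high cells reached 10 CPM, which allows a share of up to 5.45%, whereas 8 of 54 Dcx-low cells did (14.8%, 7.70 to 26.6). How many of all genes differed as much in their shares was not counted. With a minimum of 1 count, Bcor was found in 10 of 55 Dcx-high (18.2%, 10.2 to 30.3) and 16 of 54 Dcx-low cells (29.6%, 19.1 to 42.8), intervals that overlapped. The 8 cells came from 5 library groups, had 26.4 to 1944 CPM of Bcor, and 5 of them were Mki67-high. One of them, at 1055 CPM, had 932.4 CPM of Dcx, just under the median that divided the classes, and the other 7 had 3.87 to 714 CPM. None of the 8 cells was of unusual depth or carried genes of another cell type by the lists used here.

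The test of Bcor rested on these few cells. In edgeR the fitted log2 fold change was -8.72 ± 2.32, a value that depends on the prior count where sums are 0, with an unadjusted p of 0.0017 and an adjusted p of 0.99. DESeq2 on the same sums gave an adjusted p of 4.1e-06. A single Dcx-low cell held 53.3% of the counts of its class, and when its library group, group 6, was left out, Bcor no longer passed the filter on low counts and was not tested. It was not tested either after cells of other types were removed or counts thinned, although the shares after their removal were 0 of 44 and 8 of 47 cells. GABAergic markers moved with the Dcx classes, since the 4 listed had a summed median of 201 CPM in Dcx-high and 11.5 in Dcx-low cells, with ranges of 5.08 to 685 and 0 to 137. Astroglial markers had summed medians of 127 CPM in Dcx-high and 955 CPM in Dcx-low cells. Oligodendroglial markers had 499 and 917 CPM, and the ranges of both lists overlapped.

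Crebbp and Kmt2c had higher sums and larger shares at 10 CPM in Dcx-high cells, but neither was called. Crebbp sums ran from 63.5 to 1129 CPM in Dcx-high (median 218) and from 4.74 to 210 CPM in Dcx-low cells (median 83.6), higher in 4 of 6 library groups (log2 fold change 2.04 ± 0.99, edgeR adjusted p = 0.99). Without library group 1 the value was 0.93, and 3 cells gave 58.3% of the Dcx-high counts. It reached 10 CPM in 27 of 55 Dcx-high cells (49.1%, 36.4 to 61.9) and 14 of 54 Dcx-low cells (25.9%, 16.1 to 38.9), but had at least 1 count in 83.6% and 88.9% of them. The shares did not increase steadily along Dcx. Of the 36 cells lowest in Dcx, 7 (19.4%) reached 10 CPM of Crebbp, of the 37 in the middle 20 (54.1%), and of the 36 highest 14 (38.9%). Among Mki67-low cells alone, Crebbp reached 10 CPM in 22 of 46 Dcx-high (47.8%) and 5 of 29 Dcx-low cells (17.2%).

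Kmt2c sums ran from 184 to 691 CPM in Dcx-high (median 502) and from 33.0 to 613 CPM in Dcx-low cells (median 187), higher in 4 of 6 library groups (log2 fold change 1.01 ± 0.69, edgeR adjusted p = 0.99). It reached 10 CPM in 70.9% (57.9 to 81.2) and 51.9% (38.9 to 64.6) of the cells. The difference was small among Mki67-low cells. When Mki67-low cells alone were divided at their own Dcx median, the log2 fold change of Kmt2c was 0.12 ± 0.87 (edgeR adjusted p = 0.999). With the median of all cells as the limit, 32 of 46 Dcx-high (69.6%) and 19 of 29 Dcx-low cells (65.5%) among the Mki67-low reached 10 CPM. The lowest share was found in the 25 cells that were Mki67-high and Dcx-low, at 36.0%, while 5 of the 7 cells that were high for both (71.4%) reached it.

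**Figure D5:**
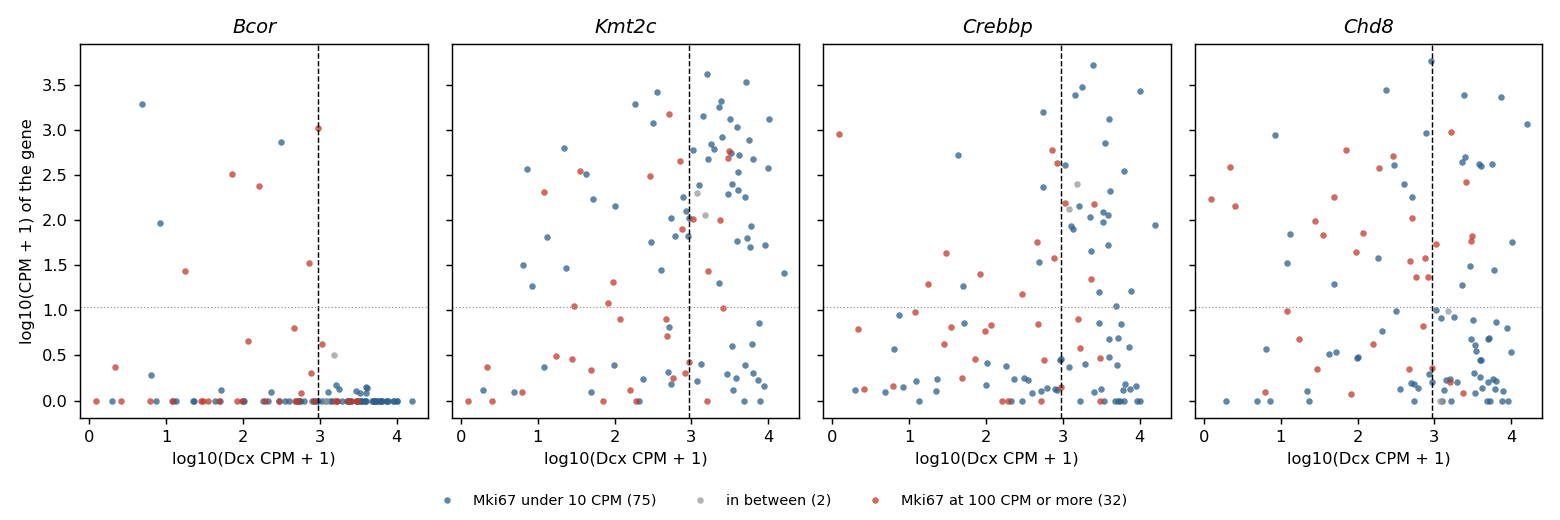
Levels of Bcor, Kmt2c, Crebbp and Chd8 (y axis, log10(CPM + 1)) against Dcx (x axis, log10(CPM + 1)) in all cells, colored by Mki67 class, with a dashed line at the Dcx median and a dotted line at 10 CPM of the gene. All 8 cells above the dotted line for Bcor lie left of the dashed line, and few cells of low Dcx are above it for Crebbp (7 of the 36 lowest in Dcx).

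None of the remaining 7 genes was called between Dcx classes. Chd7 sums ran from 409 to 998 CPM in Dcx-high (median 567) and from 329 to 904 CPM in Dcx-low cells (median 573), with a log2 fold change of 0.14 ± 0.43 (edgeR adjusted p = 0.998). Kmt2d sums ran from 217 to 432 CPM (median 345) and from 183 to 443 CPM (median 266), with 0.32 ± 0.50. The ranges of both genes overlapped broadly. The share of cells with 10 CPM of Kmt2d was 97.2% among the 36 cells lowest in Dcx (85.8 to 99.5), 86.5% in the middle and 72.2% among the 36 highest (56.0 to 84.2), while its median level was 159, 229 and 211 CPM. The first and last intervals were barely apart, and how many of all genes show such a gap was not counted. Dcx-low cells also had more detected genes than Dcx-high cells (medians of 4662 and 4256). Chd4 had a log2 fold change of 0.79 ± 0.91 and Smarca4 of 0.92 ± 0.64, each with higher sums in Dcx-high cells in 5 of 6 library groups, but with nearly equal shares of cells at 10 CPM (58.2% and 59.3% for Chd4, 56.4% and 51.9% for Smarca4). Chd8 was at -0.01 ± 0.78, with a smaller share of Dcx-high cells at 10 CPM (30.9%, 20.3 to 44.0, against 50%, 37.1 to 62.9). Ldb1 was at 1.10 ± 1.44 and Ddx3x at -0.50 ± 0.58. The edgeR adjusted p of these 7 ran from 0.991 to 0.999.

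The 10 genes showed little tendency to be high in the same cells. A cell held between 2 and 9 of them at 10 CPM, most often 5 (26 cells) or 6 (25 cells), with a median of 6 in Mki67-high and 5 in Mki67-low cells. Over all cells, which share library group and depth, Spearman correlations between pairs ran from -0.133 (Chd8 with Kmt2d) to 0.254 (Chd8 with Ldb1). Correlations with Dcx were weak, the highest being 0.234 for Kmt2c and the lowest -0.203 for Bcor, and those with Mki67 ran from -0.253 for Kmt2c to 0.277 for Chd8. For no gene did any other of about 6090 genes with a count in at least 30% of cells reach a rho of 0.5, the highest value being 0.467 with Kmt2c.

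Partner and related genes were read in 11 lists of 100 genes, of which 96 were in the table. None of the 86 tested between Mki67 classes and of the 88 tested between Dcx classes was called, and the median log2 fold changes were -0.22 and -0.02, beside -0.18 and 0.02 over all genes. At an unadjusted p under 0.05, 1 was higher (Lhx1) and 1 lower (Reln) in Mki67-high cells, where 2.87% and 4.27% of all genes were. In Dcx-high cells 2 were higher and 3 lower, where 2.26% and 2.11% of all genes were. Reln, which encodes the secreted glycoprotein reelin and is a known target of CHD7 in GCPs, had sums of 108 to 259 CPM in Mki67-high (median 215) and of 88.4 to 1439 CPM in Mki67-low cells (median 623; log2 fold change -1.78 ± 0.61, edgeR adjusted p = 0.52). It was named after its values were seen.

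Of the complexes of the remodelers, 11 of 11 NuRD subunits were tested, 8 with a positive and 3 with a negative log2 fold change (median 0.49), and none was called. Rbbp7, a histone-binding NuRD subunit, was higher in Mki67-high cells in 6 of 6 library groups, with 25.4 to 243 CPM (median 166) against 1.51 to 96.7 CPM (median 33.0; log2 fold change 1.73 ± 1.10, edgeR adjusted p = 0.77). Its ranges overlapped, and 53.1% of Mki67-high and 18.7% of Mki67-low cells reached 10 CPM. Over the genes at 10 CPM in at least 8 cells, the median difference in share was 8.96 points. The share of all genes with higher sums in every library group is not given here, nor is it for Chd9 and Lhx1 below. By limma on cell means Rbbp7 was higher by 2.80 ± 0.72 (limma adjusted p = 0.0209), beside a median of 0.43 over all genes, and was not called. Of 16 BAF subunits shared by progenitors and neurons, 15 were tested, 5 with a positive and 10 with a negative value (median -0.42). The 4 subunits of the progenitor form (Actl6a, Phf10, Dpf2 and Ss18) had a median of 0.17 and each a larger share of cells at 10 CPM in the Mki67-high class, as did 82.8% of all genes. Of the 4 subunits of the neuronal form (Actl6b, Dpf1, Dpf3 and Ss18l1), each had a larger share in the Dcx-high class, and of the progenitor form 0 of 4 did. Of the genes that reached 10 CPM in at least 8 cells, 40.1% did, but the subunits were not filtered in this way. Of the neuronal form, Dpf1 and Dpf3 were sparse. Dpf1 sums ran from 0 to 2.85 CPM in Dcx-high and from 0 to 11.1 CPM in Dcx-low cells, and Dpf3 sums from 0 to 24.7 and from 0 to 2.60 CPM. The median differences were 5.25 points for the neuronal and -8.55 for the progenitor form. By sums between Dcx classes, 2 neuronal subunits were positive and 2 negative, and 1 progenitor subunit was positive and 3 negative. No subunit of either form was called. Smarca2, the ATPase that can replace Smarca4, had sums of 0.107 to 524 CPM in Mki67-high (median 51.4) and of 0.477 to 337 CPM in Mki67-low cells (median 34.7). Of 5 other CHD genes tested, all had a negative value between Mki67 classes (median -1.07, beside -0.18 over all genes). Among them was the NuRD ATPase Chd3 (-1.79 ± 1.91, edgeR adjusted p = 0.88). By cells the direction differed, since 3 of the 5 were positive by limma and 4 had a larger share at 10 CPM in Mki67-high cells. Chd9 was higher in Dcx-high cells in 6 of 6 library groups (3.26 ± 1.31, edgeR adjusted p = 0.99). Of 7 genes listed as targets or partners of CHD7 and CHD8, 3 were positive and 4 negative.

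Of 13 genes listed with the COMPASS complexes, which methylate H3 lysine 4, 6 were positive and 7 negative between Mki67 classes (median -0.57). None of the 13 was called. Kmt2a, the founding MLL gene, had a log2 fold change of 0.33 ± 0.90 and Kmt2b of -1.91 ± 1.83 (edgeR adjusted p = 0.96 and 0.86). Kmt2b was lower in Dcx-high cells at an unadjusted p of 0.0488 (-3.78 ± 1.78), as was the shared subunit Rbbp5 (p = 0.041 by edgeR, adjusted p = 0.99). Ep300, the paralog of Crebbp, had fold changes of the opposite sign to Crebbp by sums, though between Mki67 classes both were positive by limma (1.16 for Ep300, 0.14 for Crebbp). Its sums in Mki67-high cells were 0 to 2433 CPM (median 142) and in Mki67-low cells 37.1 to 199 CPM (median 101), with a log2 fold change of 2.53 ± 1.30, and in Dcx-high against Dcx-low cells it was -2.57 ± 1.10 (edgeR adjusted p = 0.71 and 0.99). The difference between both paralogs was not tested. Of 6 acetyltransferases tested, Ep300 included, 3 were positive and 3 negative.

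Of 6 LDB1 partners tested, 4 were positive and 2 negative in Mki67-high cells (median 0.58). Lhx1, a LIM-homeodomain factor that binds LDB1, was the one nearest to a call, with 212 to 936 CPM in Mki67-high (median 783) and 115 to 589 CPM in Mki67-low cells (median 290). It was higher in 6 of 6 library groups although the ranges overlapped (log2 fold change 1.15 ± 0.54, unadjusted p = 0.0497, adjusted p = 0.69 in edgeR). By limma on cell means Lhx1 was higher by 3.04 ± 0.73 (limma adjusted p = 0.0122) and was not called. Ldb2, the paralog of Ldb1, reached at most 0.735 CPM in any sum and was not tested. Of 6 PRC1.1 genes tested, 3 were positive and 3 negative, and the Bcor paralog Bcorl1 was as sparse as Bcor, with a median of 0.80 CPM in Mki67-high and 1.15 CPM in Mki67-low sums. Its sums in Dcx-high cells ran from 0.131 to 91.6 CPM and in Dcx-low cells from 0.321 to 48.9 CPM. Usp7, a deubiquitinase of the same complex, was higher in Dcx-high cells in 5 of 6 library groups (1.82 ± 0.79, edgeR adjusted p = 0.99). Of 10 helicases related to Ddx3x, 4 were positive and 6 negative between Mki67 classes, and Ddx3y was at 1.32 ± 1.98 (edgeR adjusted p = 0.92).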

How the data were processed

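The authors aligned the reads of each cell to mm10 with STAR 2.4.1d and deposited raw counts per gene and cell from HTSeq 0.6.1, without normalization for 15973 genes. The annotation and strand setting of the counting are not given in the sources used here. Total counts per cell set which low levels could be seen, and the number of cells set the interval of each share. Each column was tied to a sample through the number shared with its title, and 5 older gene symbols through RefSeq synonyms. Positions and exon lengths are from GENCODE annotation of GRCm38.

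The members and lists were chosen with earlier results of these data known. Counts were summed per class and library group, filtered with filterByExpr, scaled by TMM and compared in edgeR 4.0.16 (quasi-likelihood, Benjamini-Hochberg adjustment). DESeq2 1.42.0 and limma 3.58.1, on log2(CPM + 1), were alternatives, as were thinning, other class limits, no filter, a block for library group, and leaving out library groups or cells of doubt. Intervals are Wilson intervals at 95% confidence (scipy 1.17.1), and a share of 0 is given the limit of 3 cells. Cells were of unusual depth with under 100000 counts or over 10000 genes, and carried genes of another type at 50 CPM or more of 5 astroglial, 3 oligodendroglial, 2 microglial, 2 endothelial or 2 GABAergic markers. Shares were set to be read at 1 count, with 10 CPM beside it, and 10 CPM is used in the text because low counts were common. Mki67 and Dcx defined the classes and were not tested. Each partner list is given by its counts, and the text names its called genes, the members' closest paralogs and up to 3 genes with the largest change among those moved alike in every library group. Other genes were named after their values were seen.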

Additional observations from a re-analysis of the deposited data

Results flagged for a closer look

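Among 40 sets of 6 library-group sums (10 genes, 2 pairs of classes), 9 had a library group far from the others by Dixon's criterion at 95%. The criterion flags about 1 in 20 sets of independent, normally distributed values. These sums are not such values, since they follow their highest cells and both pairs of classes share cells. For Bcor, 1 cell held 78.0% of the Mki67-low counts. The 9 of 40 is therefore not read against that rate. In Mki67-high cells, Chd4 was at 367.3 CPM in library group 6, beside 63.5 to 140.0 in the others. Ldb1 was at 164.6 CPM in library group 2, beside 5.33 to 61.2. Bcor was at 107.7 CPM in library group 3 of the Mki67-high and at 143.8 CPM in library group 6 of the Mki67-low cells, where the others reached at most 23.7 and 44.4. In Dcx-low cells, Chd4 was at 302.0 CPM in library group 1 (others 10.4 to 90.4), Smarca4 at 469.6 CPM in library group 6 (74.8 to 202), Kmt2c at 612.8 CPM in library group 4 (33.0 to 249) and Ldb1 at 66.8 CPM in library group 3 (0.123 to 24.7). In Dcx-high cells, Crebbp was at 1129 CPM in library group 1, beside 63.5 to 446. All 9 lay above the other library groups.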

How the results depend on the processing

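Between Mki67 classes, 2 genes over all were called in edgeR, 2 with DESeq2 size factors, 395 by DESeq2, 80 by limma, 6 at an adjusted p under 0.05, and 2 with all cells at or above 10 CPM of Mki67 as the high class. The count was 1 after thinning, without cells of unusual depth, without astroglial cells and, in an alternative chosen after seeing the data, without cells of other types. It was 0 against cells with no Mki67 count and 0 to 1 with a library group left out. With a replicate block for library group 0 were called, but same-numbered sums correlated at only 0.02 to 0.056 (Mki67) and 0.019 to 0.046 (Dcx), so the groups were not treated as pairs. Between Dcx classes DESeq2 called 130 genes, against 0 in edgeR and under every other alternative run.

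None of the 10 genes passed the threshold under an alternative in which it was tested, other than Bcor by Dcx in DESeq2. Bcor by Dcx was tested in 10 of 17 alternatives, and did not pass the filter on low counts in the other 7: without library group 6, after thinning, without cells of unusual depth, astroglial cells or other cell types, between outer Dcx groups and within Mki67-low cells. In the Mki67 comparison Kmt2c stayed negative under all 17 alternatives, from -2.37 to -1.69. Signs turned as follows (log2). Kmt2d was at -0.063 with DESeq2 size factors and in DESeq2. By limma Chd8 was at 1.79, Chd4 1.27, Smarca4 0.076, Crebbp 0.14 and Bcor 0.71. Without a filter Chd7 was at -0.01 and Kmt2d at -0.036, and with the block Chd7 was at -0.13, Kmt2d -0.10 and Ddx3x -0.03. Thinning put Bcor at 0.20. Chd4 was at 0.12 without cells of unusual depth and 0.20 without astroglial cells. Without other cell types Chd7 was at -0.12, Kmt2d -0.19 and Bcor 0.21. Against cells with no Mki67 count Chd7 was at -0.12, Chd4 0.16 and Kmt2d -1.47, and with a limit of 10 CPM Chd7 was at -0.018 and Kmt2d at -0.003. With a library group left out, Chd7 ran from -0.081 to 0.35, Ddx3x from -0.058 to 0.94, Kmt2d from -0.14 to 0.22, Chd4 from -0.51 to 0.33 and Bcor from -2.52 to 1.19.

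By Dcx, Chd8 was at 0.23 with DESeq2 size factors and in DESeq2 and 0.071 without a filter, Kmt2d was at -0.14 by limma and -0.078 within Mki67-low cells, Ldb1 at -0.12 without other cell types, and Chd7 at -0.11 between outer Dcx groups. With a library group left out Chd8 ran from -0.48 to 0.38, Ddx3x from -0.86 to 0.061 and Chd7 from -0.005 to 0.33. The cause of these turns was not tested. With a minimum of 1 count in place of 10 CPM, the share was larger in Mki67-high cells for 8 of the 10 genes, and how many of all genes did so was not counted. Sums over 3 to 15 cells, a coefficient of variation of 172% and counts of 1 to 5 in many cells limit what could be detected.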
